A study of Mus musculus with 3 samples.

Results

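MVs, the small vesicles that osteoblasts bud into the matrix they lay down, were profiled for miR-3960 and miR-2861, the miRNA pair of the osteogenic Runx2 loop. The members were the array rows named mmu-miR-3960 or mmu-miR-2861, which gave 2 of the 1079 mouse miRNA features, 1 for each miRNA. MC3T3-E1 cells, a line of mouse osteoblasts established from calvaria, were the source of the MVs, which were isolated with collagenase and ultracentrifugation. According to the methods, miRNAs were extracted from the MVs 3 times independently, and each extraction is called an isolation here. Whether each came from its own culture and vesicle preparation is not stated. Total RNA of each isolation was labeled with Cy3 (100 ng) and read on 1 miRNA array, so that 3 arrays of 1 group were available, and the parent cells were not analysed here. The labels give no treatment beyond osteogenic medium, to which β-glycerophosphate was added according to the sample labels, while the methods place MV isolation in cultures without it. Since the whole MV pellet was extracted, fewer vesicles that carry a miRNA and less of it per vesicle cannot be told apart.

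The genes of both miRNAs lie side by side, and their products are known from osteoblast differentiation. Runx2, the master transcription factor of the osteoblast lineage, binds upstream of the cluster and raises its transcription. In turn, miR-3960 represses Hoxa2, a homeobox repressor of Runx2, and miR-2861 represses Hdac5, a histone deacetylase that promotes Runx2 degradation, which closes a positive loop. As comparator served miR-125b-5p, a miRNA encoded at other loci and the main subject of the study.

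Both hairpins are shown for their position and base composition. The pair was taken as a known cluster of adjacent genes, so its shared position is no separate result. Base composition was not used to choose it. In the RefSeq miRNA table of the mouse assembly GRCm38.p6, Mir2861 is at chr2:32712807-32712888 and Mir3960 at chr2:32712900-32712972, both on the minus strand with 11 bases between them. The nearest annotated genes are Cdk9, a kinase of transcription elongation, whose nearest edge lies 22 bases from Mir2861, and the long non-coding RNA gene Gm33457, 337 bases from Mir3960. No annotated gene spans both hairpins. Capitals in the hairpins mark the longest run that mature miR-2861 has in common with the Mir3960 hairpin. Capitals in the mature sequences mark the seed, bases 2 to 8, with which a miRNA pairs to its targets.
Mir3960 hairpin: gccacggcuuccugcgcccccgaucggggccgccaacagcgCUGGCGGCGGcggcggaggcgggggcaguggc
Mir2861 hairpin: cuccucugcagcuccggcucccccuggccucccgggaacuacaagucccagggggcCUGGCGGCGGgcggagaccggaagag
miR-2861, mature: gGGGCCUGgcggcgggcgg
miR-125b-5p, mature: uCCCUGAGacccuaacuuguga

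Both members were very rich in G and C. The Mir3960 hairpin had a GC content of 82.2% and the Mir2861 hairpin one of 73.2%, against a median of 51.7% over the 1005 hairpins of the table, of which 3 and 17, respectively, were richer. Mature miR-2861 reached 94.7%, and 1 of the 867 mouse features with a mature sequence in the table was richer, whereas miR-125b-5p was at the median of 50%. The shared run CUGGCGGCGG, 10 bases searched on the RNA strand only, was found in 2 of the 1005 hairpins, namely those of the pair. Because the run was picked from the pair, both hairpins hold it by construction. The count therefore does not measure how rare such sharing is between hairpins. In mature miR-2861 the run covers bases 6 to 15 and so overlaps the end of the seed. The seed of miR-2861 was shared by 1 other mouse feature, miR-3091-3p, which was detected in 0 of the 3 isolations. The mature sequence of miR-3960 was not used here.

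The scanner software called both members detected in each of the 3 isolations. Of the 1079 mouse miRNAs, 7.78% were detected in all 3 isolations (84 miRNAs) and 16.7% in at least 1 (180 miRNAs). By isolation, 86, 179 and 164 mouse miRNAs were detected, and none of the 21 readings of the 7 negative control features was. For each pair of isolations, no mouse miRNA detected in both had an identical signal in both arrays. Isolation 1 stood apart from the others in the number of detected miRNAs, and some results are given without it as well. The order by SD of the log2 signal, the comparison over all pairs of miRNAs and the nearest patterns below use all 3 isolations only.

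The total gene signal of miR-3960, an intensity on a linear scale without normalization between arrays, was 884, 1376 and 1115 in isolations 1, 2 and 3. The signal was therefore lowest in isolation 1 and highest in isolation 2, with a mean of 1125 ± 246 (SD, n = 3) and 1.56-fold between the extremes. The error that the scanner software gave with each signal was 7.10%, 7.09% and 7.09% of it, so miR-3960 was about 14.1 times its error in each array. For miR-2861 the signal was 153.3, 258.9 and 204.6 in isolations 1, 2 and 3, with errors of 7.44%, 7.22% and 7.28%. Its order of isolations was that of miR-3960, its mean was 205.6 ± 52.8 (SD, n = 3) and its extremes differed 1.69-fold. The comparator varied far more. Its signal was 47.6, 405.5 and 271.0, with a mean of 241.4 ± 180.8 (SD, n = 3) and 8.52-fold between isolations 2 and 1.

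**Figure D1:**
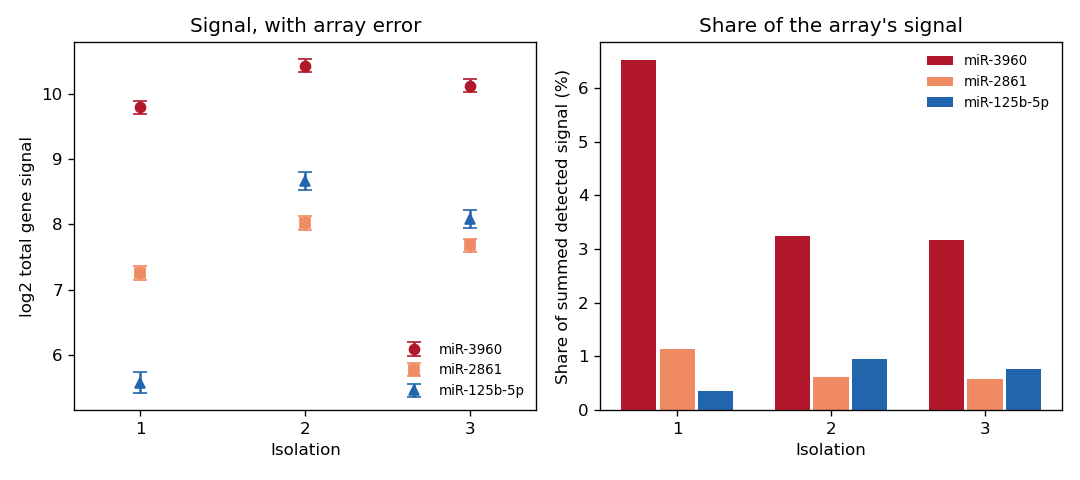
Left, log2 total gene signal of miR-3960, miR-2861 and miR-125b-5p in each of the 3 isolations, where points are single arrays and bars the error of the array software on the log2 scale. Right, percent of the summed signal of all detected mouse miRNAs of the same array. Between isolations 1 and 2 miR-3960 went from 9.79 to 10.43 and miR-125b-5p from 5.57 to 8.66, while the share of miR-3960 went from 6.52% to 3.24%.

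On the log2 scale, miR-3960 had a signal of 9.79, 10.43 and 10.12 in isolations 1, 2 and 3 (10.11 ± 0.32, SD, n = 3), and miR-2861 one of 7.26, 8.02 and 7.68 (7.65 ± 0.38, SD, n = 3). Among the 84 miRNAs detected in all isolations, the SD of the log2 signal had a median of 0.74 and ran from 0.13 to 2.50. In the order of this SD, smallest first, miR-3960 was at place 12, miR-2861 at place 17 and miR-125b-5p, with an SD of 1.64, at place 72. The signals of the pair thus varied less between isolations than those of most miRNAs. This order depended on the scale. After each array was shifted by its 75th percentile over the 84 miRNAs, the SD was 0.56 for miR-3960 and 0.51 for miR-2861, above the median of 0.40, and the places were 57 and 51.

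The shift changed the order of isolations as well. Relative to the 75th percentile, which was 6.24, 7.87 and 7.53 on the log2 scale, the normalized value of miR-3960 was 3.55, 2.56 and 2.59 in isolations 1, 2 and 3 (2.90 ± 0.56, SD, n = 3). That of miR-2861 was 1.02, 0.15 and 0.15 (0.44 ± 0.51, SD, n = 3). Both members were thereby highest in isolation 1, where their signals as deposited were lowest, and nearly equal in isolations 2 and 3. The comparator miR-125b-5p had its lowest normalized value in isolation 1 (-0.66) and higher in isolations 2 (0.80) and 3 (0.55), with a mean of 0.23 ± 0.78 (SD, n = 3).

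By signal within an array, miR-3960 was the fourth brightest of 86 detected mouse miRNAs in isolation 1 (place 4) and at place 5 of 179 and of 164 in isolations 2 and 3. It was 31.2, 40.5 and 37.0 times the median detected signal of its array. The next brighter miRNA was miR-466i-5p in all 3 isolations, and the next dimmer one was miR-3963 in isolation 1 and miR-574-5p in the others. Each of these neighbors differed from miR-3960 by more than the combined error of both signals, the closest being miR-466i-5p in isolation 1, which was 0.21 log2 units brighter with a combined error of 0.15. miR-2861 was at place 14, 20 and 20, at 5.41, 7.62 and 6.79 times the median. None of its neighbors differed from it beyond the combined error. These were miR-5105 and miR-494-3p in isolation 1, miR-199a-3p and miR-5105 in isolation 2, and miR-199a-3p and miR-494-3p in isolation 3, at distances of 0.04 to 0.08 log2 units. The comparator was at place 32 in isolation 1, below miR-2861, and at places 15 and 17 in isolations 2 and 3, above it. Probes differ in their response, so these are orders of signals and not of RNA amounts.

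**Figure D2:**
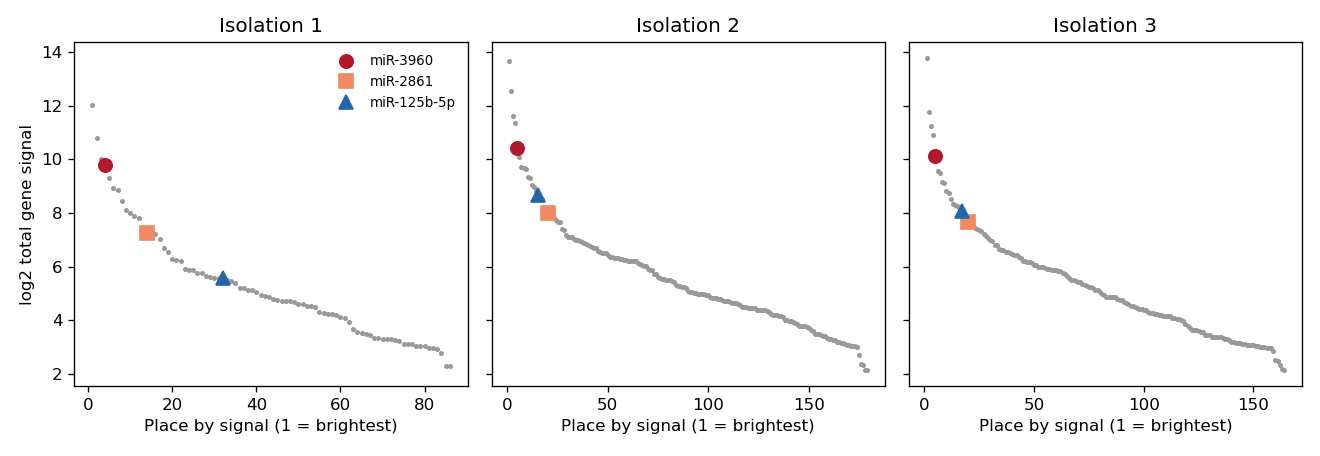
Log2 total gene signal of every detected mouse miRNA against its place by signal in isolations 1, 2 and 3 (86, 179 and 164 points, with the horizontal axis scaled to each array). miR-3960 lies on the steep upper end at places 4, 5 and 5 and miR-2861 at places 14, 20 and 20, whereas miR-125b-5p moves from place 32 to places 15 and 17.

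As a share of the summed signal of all detected mouse miRNAs of the array, miR-3960 took 6.52% in isolation 1, 3.24% in isolation 2 and 3.17% in isolation 3 (4.31% ± 1.91, SD, n = 3). The share of miR-2861 was 1.13%, 0.609% and 0.582% (0.774% ± 0.309, SD, n = 3). The share in isolation 2 was 0.497 times that in isolation 1 for miR-3960 and 0.539 times for miR-2861, against 2.72 times for miR-125b-5p. Without isolation 1 the mean share was 3.20% for miR-3960 and 0.596% for miR-2861. The summed detected signal itself was 13558, 42478 and 35179 in isolations 1, 2 and 3, so the shares of the pair were lower in isolations 2 and 3 although their signals were higher there.

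The differences between isolations were set against those of all 84 miRNAs detected in each. Isolation 2 minus isolation 1 gave a log2 difference of 0.64 for miR-3960, 4.41 times the combined error of the arrays, and of 0.76 for miR-2861, 5.05 times the error. The median over the 84 miRNAs was 1.37, and 15 and 19 of them, respectively, had a smaller difference. For isolation 3 minus isolation 1 the values were 0.33 and 0.42, at 2.31 and 2.77 times the error, with a median of 0.87. Both members thus lay below the median in each comparison with isolation 1. Between isolations 2 and 3 they were near it, with log2 differences of -0.30 and -0.34 and a median of -0.36. By contrast, miR-125b-5p differed by 3.09 between isolations 2 and 1, above 72 of the 84 miRNAs, and by 2.51 between isolations 3 and 1. The 10 positive control features detected in all arrays ran from -1.67 to 2.71 in isolation 2 minus isolation 1. With 1 array for each isolation these differences have no replicate and were not tested.

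**Figure D3:**
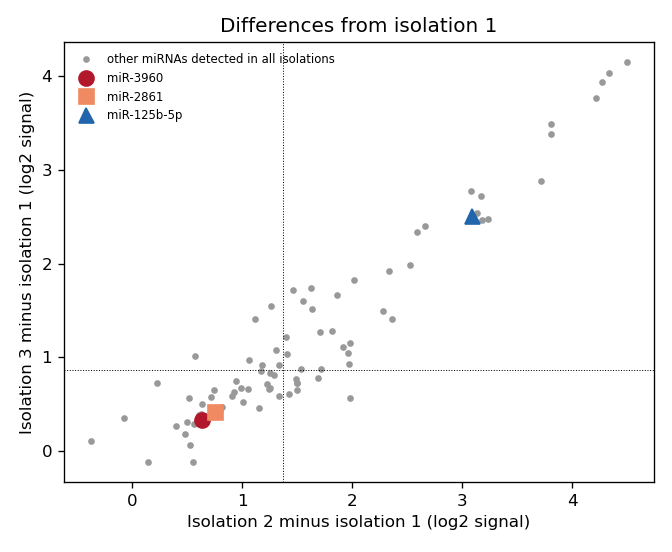
Log2 signal of isolation 3 minus isolation 1 against isolation 2 minus isolation 1 for the 84 miRNAs detected in all isolations, with dotted lines at the medians (1.37 and 0.87). miR-3960 (0.64, 0.33) and miR-2861 (0.76, 0.42) lie next to each other below both medians, and miR-125b-5p (3.09, 2.51) lies above both; isolation 1 enters both axes.

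Within an array, any factor of the whole array cancels from the difference of 2 log2 signals. miR-3960 exceeded miR-2861 by 2.53 in isolation 1, 2.41 in isolation 2 and 2.45 in isolation 3, that is 5.77-, 5.32- and 5.45-fold. The mean log2 difference was 2.46 ± 0.06 (SD, n = 3), and its SD was below the combined error of the 2 signals in each array, 0.15. Over all 3486 pairs of the 84 miRNAs the median of this SD was 0.55, and 1.52% of pairs (53) had one no larger than that of miR-3960 and miR-2861. This error covers the measurement of an array only, not the spread between isolations, for which 3 values were available. The exact sign-flip permutation test over the 3 arrays gave a two-sided p = 0.25, the smallest that 3 arrays allow, and 0.375 after Benjamini-Hochberg adjustment over the 3 differences tested.

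Against the comparator the differences were not constant. miR-3960 exceeded miR-125b-5p by 4.21 log2 units in isolation 1, 1.76 in isolation 2 and 2.04 in isolation 3, or 18.6-, 3.39- and 4.11-fold. It was brighter in 3 of 3 isolations, with a mean difference of 2.67 ± 1.34 (SD, n = 3; exact p = 0.25, adjusted 0.375). miR-2861 was above miR-125b-5p by 1.69 in isolation 1 but below it in isolations 2 and 3, with differences of -0.65 and -0.41. The mean of 0.21 ± 1.28 (SD, n = 3) was smaller than the spread between isolations (exact p = 1), and without isolation 1 it was -0.53.

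**Figure D4:**
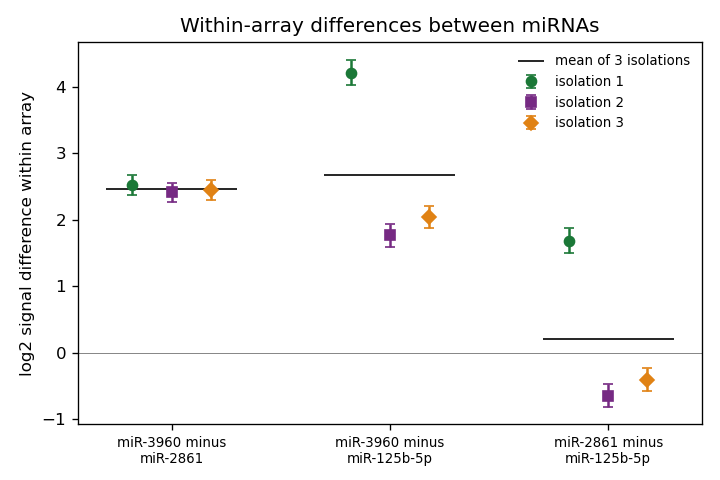
Log2 signal differences within the same array for miR-3960 minus miR-2861, miR-3960 minus miR-125b-5p and miR-2861 minus miR-125b-5p. Points are single isolations, bars the combined error of both signals and horizontal lines the mean of 3 isolations (2.46, 2.67 and 0.21); the first difference runs from 2.41 to 2.53, and the last changes sign between isolation 1 and the others.

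The miRNAs whose signals followed the members most closely over the 3 isolations were found by the Euclidean distance between log2 signals, each centered on its own mean, among the 83 other miRNAs detected in all isolations. For miR-3960 the nearest were miR-1906 (distance 0.039), miR-370-3p (0.050), miR-296-5p (0.051), miR-494-3p (0.053) and then miR-2861 (0.085). For miR-2861 they were miR-5126 (0.033), miR-671-5p (0.049), miR-1906 (0.083), miR-3960 (0.085) and miR-370-3p (0.093). Each member was therefore among the 5 nearest of the other. For any pair this distance is a fixed multiple of the SD of their within-array log2 difference. It therefore restates the small SD given above for the pair and is no separate result. The median distance was 0.61 from miR-3960 and 0.56 from miR-2861, and miR-125b-5p was the 71st nearest to both, at 1.90 and 1.82. With 3 arrays these distances are a description of the arrays.

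The nearest to miR-2861, miR-5126, had the highest GC content (100%) among the 867 mouse features with a mature sequence in the table, which leave out miR-3960. Of the 5 richest in G and C among these 867, miR-5126, miR-2861 and miR-2137 (85.7%) were detected in all isolations, and miR-5131 (87.0%) and miR-5122 (85%) in none. In isolation 2 minus isolation 1, miR-5126 differed by 0.80 log2 units and miR-2861 by 0.76, but miR-2137 by 1.40, close to the median of all miRNAs. A relation to GC content across miRNAs was not computed, because 66.7% of the 84 miRNAs (56) had a mature sequence in the table, below the 80% required.

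A list of miRNAs known to act on the Runx2 transcript, and so to restrain osteoblast differentiation, was set beside the members. Every arm of each list name was looked up, whether or not that arm is known to act on Runx2. Wherever they were detected, these features were dimmer than both members. So were most detected miRNAs, since miR-2861, the dimmer member, was at place 20 of 179 in isolation 2 and 20 of 164 in isolation 3. The 11 miRNAs of this list had 25 features on the array, of which 5 (20%) were detected in at least 1 isolation, near the 16.7% of all mouse miRNAs. None was detected in isolation 1, 5 were in isolation 2 and 4 in isolation 3. Of all mouse miRNAs, 7.97%, 16.6% and 15.2% were detected in isolations 1, 2 and 3. The brightest was miR-23a-3p, with log2 signals of 6.52 and 6.05 in isolations 2 and 3, below miR-2861 in both. miR-30c-5p (3.26 and 3.07), miR-30c-1-3p (3.01 and 2.85) and miR-34c-5p (3.21 and 3.09) had lower log2 signals in these isolations, and miR-338-5p (2.14) was detected in isolation 2 only. No feature of miR-133a, miR-135a, miR-137, miR-204, miR-205, miR-217 or miR-218 was detected. Undetected miRNAs carry a placeholder signal of 0.1 and have no measured level. The lowest signals that were detected on the linear scale were 4.87, 4.39 and 4.41 in isolations 1, 2 and 3.

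Of 8 osteoblast or mesenchymal miRNAs, markers of the labelled source, 4 were detected in isolation 1 and 6 in each other isolation. Their summed signal was 0.340%, 2.32% and 2.20% of the array, higher in isolations 2 and 3, where the shares of the pair were lower. In isolation 2 minus isolation 1, the marker miR-199a-3p differed by 4.50 log2 units, the highest value of the 84 miRNAs detected in all isolations. The other markers detected in all isolations, miR-21a-5p, miR-22-3p and miR-214-3p, differed by 4.34, 4.27 and 3.17. let-7a-5p, which is not among the markers, differed by 4.22. Over the 84 miRNAs detected in all isolations the median was 1.37 and the lowest value -0.38. miR-143-3p and miR-145a-5p were not detected in any isolation. Of 12 miRNAs of leukocytes, erythrocytes, liver, neurons and muscle, 1 was detected, miR-206-3p of muscle, in each isolation, with a signal of 7.71, 37.4 and 21.7. Of all 1079 mouse miRNAs, 7.78% were detected in all 3 isolations, so 1 of 12 is near the share of the whole array. The other miRNAs of these cell types were undetected throughout. They were miR-142-3p, miR-142-5p, miR-223-3p, miR-150-5p, miR-451a, miR-144-3p, miR-122-5p, miR-124-3p, miR-9-5p, and the muscle miRNAs miR-1a-3p and miR-133a-3p. The part of the source of the RNA in the values of miR-3960 and miR-2861 was not tested.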

How the data were processed

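Total RNA of 3 independent extractions from MVs, called isolations here, was measured on 1 Agilent mouse miRNA array each. Each table the authors deposited lists features with an intensity (total gene signal, linear scale), its error and a detection call, made with Agilent Feature Extraction 10.10.1.1 per the labels, without normalization between arrays. Undetected features carry a signal of 0.1 and an error of 1. Samples were numbered by their titles. The members and lists were chosen with earlier results of these data known. Signals were taken as log2, and normalized values as log2 minus the 75th percentile over mouse miRNAs detected in all arrays. Errors on the log2 scale are the error over the signal, divided by the natural log of 2, and errors of 2 signals were combined as the root of summed squares. Shares and places were taken over detected mouse miRNAs. The miRNAs named were both members, the comparator, detected members of the Runx2 list, the 5 nearest patterns, the neighbors by signal, those with a shared seed, the 5 highest in GC content and marker miRNAs. Alternatives were other references of the shift, quantile normalization, other sets of features and detection rules, a pseudocount of 1, and each isolation left out. Functions were tested on simulated arrays. The number of arrays, 3, limits the precision. Python 3.11.15, numpy 2.4.6, pandas 2.3.3 and matplotlib 3.10.9 were used.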

Additional observations from a re-analysis of the deposited data

How the results depend on the processing

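Of 96 values recomputed for 16 results, 72 moved by less than 1 SD or 1.5 times or kept their direction. The normalized value depends on its zero. For miR-3960 (2.90), miR-2861 (0.44) and miR-125b-5p (0.23) it was 8.25, 5.79 and 5.58 when the shift used the 90th percentile of every mouse miRNA (SD 4.21, 4.15 and 2.87; in isolation 1, where 7.97% were detected, this percentile is the placeholder signal of undetected miRNAs), 1.23, -1.23 and -1.44 with the 90th percentile over miRNAs detected in all arrays, and 4.28, 1.82 and 1.60 with their median. It was -4.62, -7.08 and -7.29 with the summed signal as reference and 10.11, 7.65 and 7.44 without a shift. With each isolation left out it ranged from 3.07 to 3.67 for miR-3960, from 0.58 to 1.25 for miR-2861 and from -0.057 to 1.77 for miR-125b-5p, each highest without isolation 1, where more miRNAs enter the percentile. The place by SD after the shift, 57 for miR-3960 and 51 for miR-2861, was 12 and 17 without a shift. With each isolation left out, the place after the shift ranged from 7 to 60 and from 17 to 56. Its lowest values came without isolation 1, where 164 miRNAs were ordered. For miR-125b-5p the place by SD was 69 to 73 in the settings that included isolation 1. Without isolation 1 it was 100 among the 164 miRNAs, a longer order, so these places are not on the same scale.

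The log2 difference of miR-3960 and miR-2861 (2.46) was 2.43 to 2.49 with each isolation left out, and that of miR-3960 and miR-125b-5p (2.67) was 1.90 to 3.13. The difference of miR-2861 and miR-125b-5p (0.21) ranged from -0.53 to 0.64, and was reversed at -0.53 without isolation 1. Of the 25 features of the Runx2 list, 5 were detected in at least 1 isolation and 0 in all 3. The shares of all mouse miRNAs were 16.7% and 7.78%, and whether the list differs from them was not tested. No paired analysis was possible because all 3 samples belong to 1 group. The planned relation to GC content was not run. Detection limits the list of Runx2-targeting miRNAs, since undetected ones have no level.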
